A study of Homo sapiens with 6 samples.

Results

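The locus examined was the duplicated NBPF1 region on the short arm of human chromosome 1, chr1:16800001-17100000 in hg19, a stretch of 300 kb. It was chosen on measured values from these same libraries, namely the peaks, the paired break sites and the persistent clusters described here, so its richness in them is a description and carries no test. The region held 929 of the 4267178 strand-specific peaks deposited for the treated samples and 205 of the 262171 sites built from them. END-seq, which tags double-strand breaks (DSBs) by ligating a biotinylated adapter to the broken ends and sequences outward from them, had been applied to HCT116 cells, an established human colorectal carcinoma line. Camptothecin (CPT) had been given at 10 µM for 10 min (CPT10, 2 biological replicates) or 20 min (CPT20, 2 biological replicates). The sample titles write 10 µM and 20 µM, whereas the treatment protocol and the design text give 1 dose and 10 or 20 min, and the latter reading was used. All samples carried murine pre-B cells as a spike-in, whose reads are not part of the peak lists. The 2 untreated samples entered the peak calls as input and had no peak lists analysed here, so no level in untreated cells stands beside the values that follow. The calls used a constant background, so no peak was weighed against the untreated signal at its own position. Each treated library had 1 list of forward and 1 list of reverse peaks, 8 lists in all, with 286491 to 826744 peaks per list. CPT20 replicate 2 had the shortest lists and CPT10 replicate 1 the longest reverse list.

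CPT traps topoisomerase I on the DNA strand it has nicked, and the trapped complexes become DSBs when polymerases meet them or when opposed nicks are processed. In END-seq a break leaves reverse-strand reads on its left and forward-strand reads on its right. NBPF1 belongs to the neuroblastoma breakpoint family, whose members encode repeated Olduvai (DUF1220) domains and lie in segmental duplications that expanded in the human lineage. CROCCP2, CROCCP3 and CROCCP4 are pseudogene copies of CROCC, which encodes rootletin, the main protein of the ciliary rootlet. ESPNP is a pseudogene copy of the espin gene and MST1L of the gene for macrophage stimulating protein. The RNU1 genes encode U1 small nuclear RNA, which recognises 5′ splice sites. The annotation used (GENCODE) placed 33 genes in or across the region, of which 5 were protein-coding, 3 were small nuclear RNA genes, 13 were long non-coding RNA genes and 2 were miRNA genes.

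Sequences that carry the duplications and the breaks are printed from the hg19 reference. RNU1-1 and RNU1-3 are shown in gene orientation because peaks lay beside the first and none beside the second. Capitals mark the 164 bases of the gene, with the adjoining bases in lower case. They span chr1:16840549-16840848 (minus strand) and chr1:16993212-16993511 (minus strand).
RNU1-1: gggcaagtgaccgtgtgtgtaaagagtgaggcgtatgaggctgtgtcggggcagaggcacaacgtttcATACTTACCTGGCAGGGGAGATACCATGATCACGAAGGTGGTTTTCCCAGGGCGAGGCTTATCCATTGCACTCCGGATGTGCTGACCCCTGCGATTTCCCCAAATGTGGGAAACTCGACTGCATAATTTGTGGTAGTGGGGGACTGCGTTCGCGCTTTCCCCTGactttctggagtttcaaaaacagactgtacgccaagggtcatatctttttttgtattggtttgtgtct
RNU1-3: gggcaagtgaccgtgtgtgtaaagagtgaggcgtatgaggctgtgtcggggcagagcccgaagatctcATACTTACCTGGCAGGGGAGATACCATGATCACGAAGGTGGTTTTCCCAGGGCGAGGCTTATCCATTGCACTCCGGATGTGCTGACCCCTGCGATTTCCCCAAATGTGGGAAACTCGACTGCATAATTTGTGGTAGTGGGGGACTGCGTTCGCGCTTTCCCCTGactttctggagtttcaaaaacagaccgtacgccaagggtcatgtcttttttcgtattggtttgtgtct
The 164 gene bases were identical in RNU1-1, RNU1-3, RNU1-4 and RNU1-2, the latter lying in the right flank. The 300-base windows of RNU1-3 and RNU1-4 (chr1:17066943-17067242, plus strand) were also identical throughout, while that of RNU1-1 differed from them by 9 edits, all outside the gene. The persistent cluster shown, 1 of the 11 of the region, is that of NBPF1 whose weakest library ranked best by q-value within the gene. Capitals mark 11 bases centred on each reverse or forward summit of the best peak pair of a library that fell in the window. It lies in NBPF1 at chr1:16893312-16893611 and is printed on the plus strand.
NBPF1 cluster: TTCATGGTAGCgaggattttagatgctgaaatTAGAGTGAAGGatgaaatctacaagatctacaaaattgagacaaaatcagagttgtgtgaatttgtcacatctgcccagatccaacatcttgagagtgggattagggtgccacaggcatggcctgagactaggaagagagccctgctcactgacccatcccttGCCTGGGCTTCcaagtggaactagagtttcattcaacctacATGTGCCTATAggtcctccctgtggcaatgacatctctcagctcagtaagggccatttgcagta
The window held 4 of 8 such summits, so the best pairs of the 4 libraries did not share a summit position. Every 150-base word starting in it occurred once in the genome, while 58.7% of the 50-base words did.

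Peak density was higher in the region than in the 1 Mb on each side in every list. CPT10 replicate 1 had 134 forward and 143 reverse peaks in the region, CPT10 replicate 2 had 97 and 100, CPT20 replicate 1 had 141 and 157, and CPT20 replicate 2 had 73 and 84. Per Mb of assembled sequence, the forward lists stood at 1.79, 1.90, 1.48 and 2.46 times the flanks in the same order. The reverse lists stood at 1.21, 1.70, 1.48 and 2.19 times the flanks. With the strands added, the mean ratio of the 10 min libraries was 1.61 ± 0.25 (SD, n = 2) and that of the 20 min libraries 1.89 ± 0.59 (SD, n = 2), with overlapping ranges. Replicate 2 gave the higher ratio at both times. Among the windows of 300 kb that tile the genome, the region ranked between 47 and 340 of 9468 to 9494 windows with peaks, depending on the list. The median window held 29 to 87 peaks. At the left border the density was similar on both sides, with 2.7 peaks per list per 10 kb in the last 50 kb outside and 2.83 in the first 50 kb inside. At the right edge the last 40 kb inside held 0.94 and the first 25 kb outside 1.05.

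The median peak of the region was also taller and wider than that of the flanks. MACS2 reports the fold of each summit over a constant expected height, from which the whole-number summit height, in overlapping fragments, could be read back. Median heights in the region were 14, 8, 13 and 10 fragments in the forward lists and 13, 7, 11 and 9 in the reverse lists. The flanks had 10, 6, 9 and 7 forward and 10, 6, 10 and 7 reverse. Median widths were 227 to 334 bp in the region against 179 to 237.5 bp in the flanks. Among peaks whose −log10 q reached 10, the density ratio of region to flanks was 2.72 to 19.5, the extremes resting on 105 reverse flank peaks in CPT20 replicate 1 and 3 forward flank peaks in CPT10 replicate 2. The tallest forward summits reached 50, 22, 44 and 23 fragments and the tallest reverse summits 40, 29, 44 and 33. Those of the flanks reached 46, 15, 44 and 28 forward and 55, 20, 37 and 22 reverse, so the single tallest peak was in the flanks in 2 of the 8 lists and equal in 1.

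**Figure D1:**
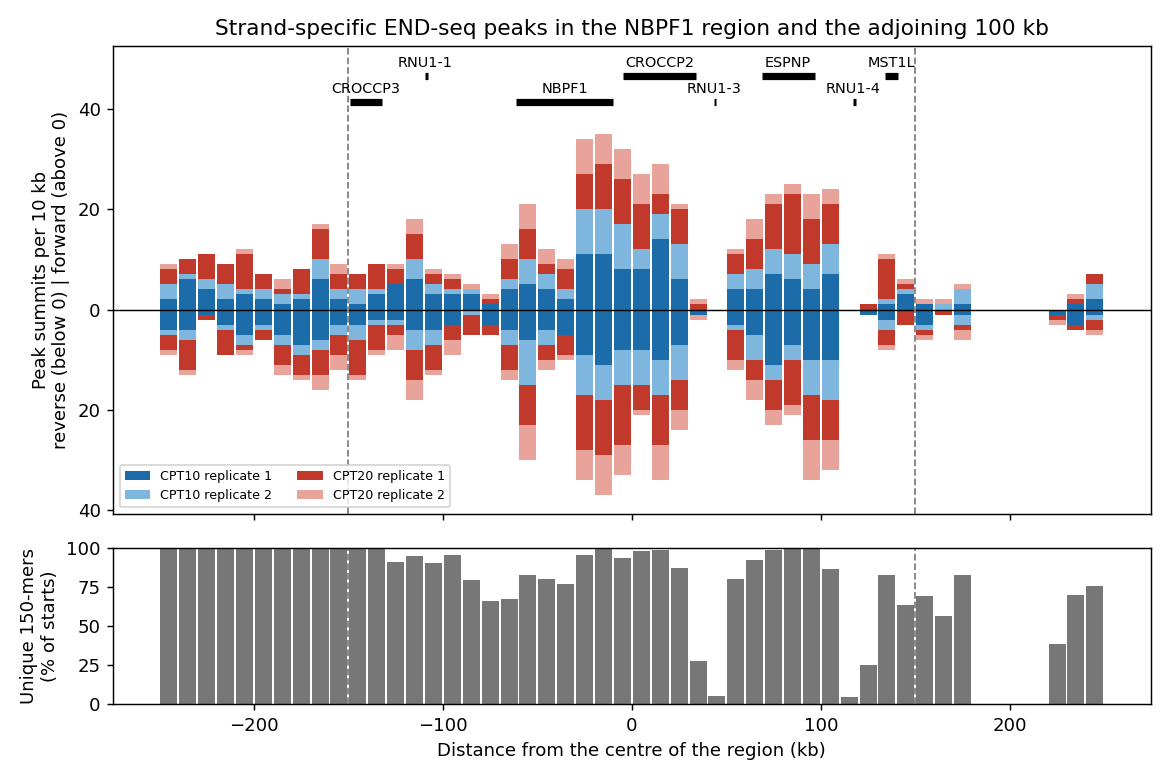
Peak summits per 10 kb bin (forward above 0, reverse below 0, stacked over the 4 libraries) against distance in kb from the centre of the region, with black bars for annotated genes and dashed lines at the borders of the region; the lower panel gives the share of 150-base words that occur once in the genome. The highest bins lay in and beside NBPF1 and CROCCP2, up to 72 summits over the 8 lists, and the bins around RNU1-3 and RNU1-4 held almost none where few words were unique. The blank bins near 200 kb are a gap in the assembly.

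Within the region, peaks were sparse where the sequence was repeated, while stretches of mostly unique sequence ranged from the level of the flanks to dense. The first 50 kb of the region, at 95.2% unique words, held 2.83 peaks per list per 10 kb. The last 50 kb before it, at 100%, held 2.7. Reads had been kept only at a mapping quality of at least 30, so a read pair from a sequence with an equal copy elsewhere is lost. Of the 150-base words (the read length) that start in the region, 78.9% occurred once in the genome, against 99.8% in the left flank and 97.8% in the right flank. Of the 63231 start positions with a copy, 69.8% had a copy inside the region itself. The 21 bins of 10 kb with at least 80% unique words held a median of 45 summits over the 8 lists (16 to 72). The 5 bins with 30 to 80% held a median of 10 (8 to 27) and the 4 bins under 30% a median of 1 (0 to 4). The 194 fully assembled bins of the flanks held a median of 18 (3 to 38). Between 94.5% and 98.6% of the region's summits, by list, lay at a unique word. Counted per Mb of unique start positions, the ratio of region to flanks was 1.52 to 3.08 by list. Uniqueness of single words is a rough guide to what the filter keeps, since a mate in unique sequence can help to place a read and a near-identical copy can lower its mapping quality.

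**Figure D2:**
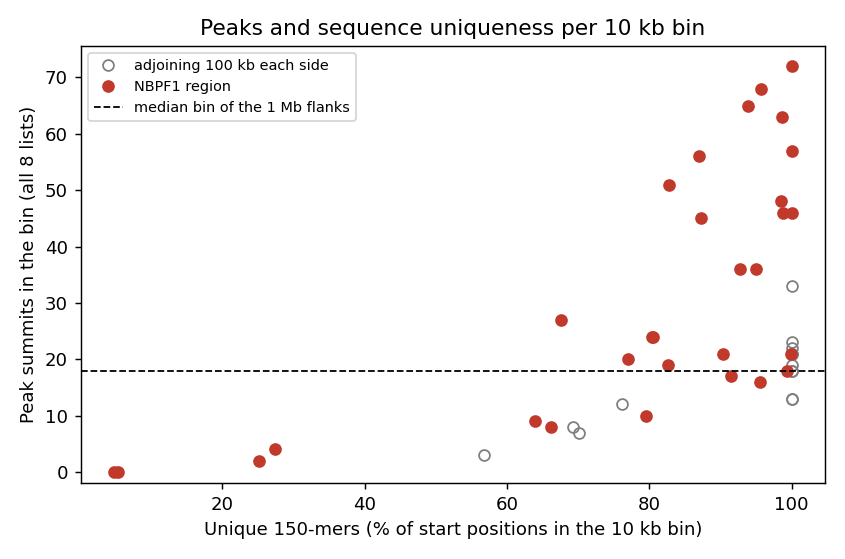
Peak summits per 10 kb bin over all 8 lists against the share of its 150-base words that occur once in the genome, for the 30 bins of the region (filled) and the assembled bins of the adjoining 100 kb (open); the dashed line is the median of 18 for the bins of the 1 Mb flanks. The 4 bins of the region under 30% held 0 to 4 summits, and the 21 bins of the region at 80% or more held 16 to 72.

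NBPF1 itself (chr1:16888814-16940057, minus strand) was the gene with the most peaks inside the region. Its 51.2 kb held 242 summits, or 5.90 per list per 10 kb. CPT10 replicate 1 had 34 forward and 36 reverse summits in the gene, CPT10 replicate 2 had 28 and 28, CPT20 replicate 1 had 29 and 39, and CPT20 replicate 2 had 24 and 24. These counts gave 2.13, 2.98, 1.98 and 4.13 times the density of the flanks in the respective libraries. Along the gene the summits lay at its ends. The first 10 kb from the 5′ end held 72 summits over the 8 lists and the next 10 kb held 69. The stretches from 20 to 30 kb and from 30 to 40 kb held 20 and 24, and that from 40 to 50 kb held 51. Unique 150-base words made up 100%, 95.8%, 76.9%, 80.3% and 82.8% of these 5 stretches, and unique 50-base words 86.0%, 69.2%, 34.9%, 33.3% and 42.3%. The last of them thus held more summits than the 2 before it at a similar uniqueness. Forward and reverse summits were near balance in the first 40 kb, with 91 forward and 94 reverse, and stood at 21 forward and 30 reverse from 40 to 50 kb.

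The pseudogenes CROCCP2 and ESPNP had densities close to that of NBPF1, while the pseudogenes CROCCP3, MST1L, ENSG00000280114 and PDE4DIPP8 and the other protein-coding genes were lower. CROCCP2 (chr1:16945464-16983727) held 179 summits, 5.85 per list per 10 kb, and ESPNP (chr1:17018775-17046652) held 136, or 6.10. A shorter long non-coding RNA entry, also named CROCCP2 (chr1:16944748-16971181), held 150, or 7.09, which is above NBPF1. By library, the CROCCP2 pseudogene stood at 2.40, 3.07, 1.91 and 3.23 times the flanks and ESPNP at 2.29, 2.45, 2.72 and 3.01 times. CROCCP3 ranged from 0.26 to 1.5 times and MST1L from 0 to 1.44 times. Per list per 10 kb CROCCP3 held 2.29 summits, ENSG00000280114 2.29 and MST1L 1.55, and PDE4DIPP8 held 0. Of the remaining pseudogenes, MST1P2 held 4.28 and CROCCP4 1.71. The short ENSG00000283773 and EIF1AXP1 held 3.64 and 11.5, which rest on 1 and 4 summits over the 8 lists. CROCC, which runs on beyond the region, held 1.13 summits per list per 10 kb in the 33.2 kb that lie inside. The 3 short protein-coding models AL355149.2, AL137798.1 and AL021920.2 held no summit in any list. They are 510 bp long, and unique words made up 65.5% of the first and 0% of the other two.

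Break sites were built by the pairing rule of the study, joining each reverse peak with the closest forward peak that overlapped it or began less than 150 bp to its right. Overlapping pairs of a library were then merged, a step added here. The region held 66 and 40 sites at 10 min and 73 and 26 at 20 min. The flanks, with more than 6 times the assembled sequence, held 118, 43, 163 and 19. Per Mb, sites were thus 3.64, 6.05, 2.91 and 8.90 times as dense in the region. Most pairs of the region were overlapping peaks (79 of 88, 36 of 42, 92 of 102 and 27 of 31, or 89.8%, 85.7%, 90.2% and 87.1%), as were 73.6% to 79.3% of all pairs of the libraries. The forward summit lay to the right of the reverse summit in 53.4%, 52.4%, 53.9% and 58.1% of these pairs, against 57.5% to 61.7% in the whole libraries. The 95% Wilson intervals of the region's shares, which cover counting error only, spanned 37.7% to 73.6% between them, and each included the genome-wide share of its own library. The forward share of the region's peaks was 48.4%, 49.2%, 47.3% and 46.5%, against 41.7%, 50.2%, 50.1% and 50.2% in the whole libraries and 38.8%, 46.5%, 47.2% and 43.7% in the flanks. It was thus above the share of the library in CPT10 replicate 1 and below it in the other 3.

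Sites in the region recurred between replicates far more often than sites elsewhere. Counting an overlap of 1 bp or more, at 10 min replicate 2 also had 25 of the 66 sites of replicate 1 (37.9%, Wilson 95% limits 27.2 and 49.9%), and replicate 1 had 29 of the 40 sites of replicate 2 (72.5%, limits 57.2 and 83.9%). At 20 min the shares were 19 of 73 (26.0%, limits 17.3 and 37.1%) and 17 of 26 (65.4%, limits 46.2 and 80.6%). Over all sites of the same 4 libraries the shares were 4.08%, 7.78%, 3.65% and 17.0%. In the flanks 3 sites recurred in each library, or 2.54%, 6.98%, 1.84% and 15.8%. The mean share of the 4 libraries in the region, 50.4%, was 18.2% with a reciprocal overlap of at least 50% and 10.1% with peaks whose −log10 q reached 10. The latter mean rests on 0% of 24 sites and 0% of 1 at 10 min, and 7.14% of 14 and 33.3% of 3 at 20 min. Shares of the genome and flanks were not computed at these 2 settings, so those given above are no background for them. Since the region was chosen partly for sites that recur, these shares describe it and are no test. Peaks of 1 strand, merged over the libraries, recurred as well. All 4 libraries had a peak in 29 of 199 forward intervals (14.6%) and in 34 of 220 reverse intervals (15.5%) of the region. The genome-wide shares were 0.709% and 0.770%, and the flanks had 8 of 1286 forward and 18 of 1586 reverse intervals. Taller, wider and denser peaks overlap more readily, and their part in the recurrence was not tested.

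**Figure D3:**
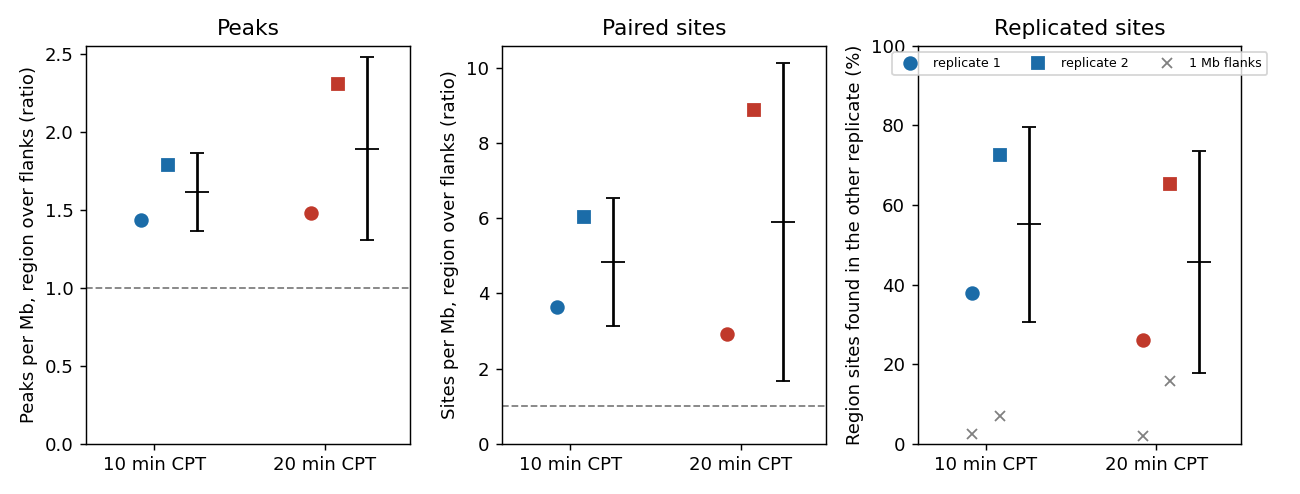
Values per library (circle, replicate 1; square, replicate 2) with the mean and SD of the 2 replicates beside them, at 10 and 20 min of CPT. The left and middle panels give the density of peaks and of sites in the region over the flanks, all above the dashed line at 1, and the right panel the percent of sites found in the other replicate, with the flanks as crosses. All 4 libraries lay above their flank values, and replicate 2 was the higher at both times in each panel.

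Of the 931 persistent clusters of the genome, defined here as sites present in both replicates at both times, 11 lay in the region, 1 in the flanks. The study assigned its classes of the same names by enrichment over untreated cells at each time. It then added transient and late clusters that overlapped each other to the persistent class. The counts here are therefore of another set. The count in the region was 7 with peaks whose −log10 q reached 3 or with lists of equal length, 4 with a reciprocal overlap of at least 50%, and 0 at a −log10 q of 10. Clusters of the genome were not counted at these settings, so 931 is no background for them. Windows of 300 kb with any persistent cluster were 5.34% of the 9506 windows, and the region shared the third place among these 508 windows with 1 other. The clusters were 423 to 3231 bp wide. The gap between neighbours had a median of 1276 bp and ran from 118 to 82390 bp, so most lay in a chain. NBPF1 held the midpoints of 6, at chr1:16890106-16891709, chr1:16892973-16893907, chr1:16922388-16925162, chr1:16926451-16928071, chr1:16936286-16937380 and chr1:16937541-16939775. The midpoint of the one at chr1:16926451-16928071 fell in an annotated exon and those of the other 5 in introns. The cluster at chr1:16939894-16941926 spanned the 5′ end of NBPF1, with its midpoint at -853 bp from that end. The next, at chr1:16942366-16945596, had its midpoint in the long non-coding RNA gene ENSG00000271732. CROCCP2 held the clusters at chr1:16965808-16968993 and chr1:16969596-16971513, and the last, at chr1:17053904-17054326, was intergenic.

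The strength of these clusters varied widely between libraries. Taking for each library the best pair in a cluster and the −log10 q of its weaker peak, the cluster at chr1:16892973-16893907, 46.6 kb into NBPF1, had 19.6 and 6.45 at 10 min and 18.6 and 21.3 at 20 min. In CPT20 replicate 2 the next highest value among the 11 was 10.9. The cluster at chr1:16965808-16968993 in CROCCP2 had 18.4 and 8.43 at 10 min and 14.0 and 6.73 at 20 min. Ranked among all pairs of each library, its lowest place was 1530, the best such place of the 11. The exonic cluster at chr1:16926451-16928071 had 17.5, 6.40, 13.1 and 4.93, so replicate 1 was the higher at both times. The cluster across the NBPF1 5′ end had 13.1, 6.45, 8.92 and 10.9, with 19 reverse and 36 forward fragments at the summits in CPT10 replicate 1. The weakest, at chr1:16937541-16939775, had 8.06, 1.53, 3.55 and 4.93. Over the 11 clusters the values ran from 8.06 to 19.6, from 1.53 to 8.43, from 3.55 to 18.6 and from 4.93 to 21.3 in the 4 libraries. The expected height was 0.73 fragments in CPT10 replicate 2 and 0.86 in CPT20 replicate 2, against 1.2 to 1.44 in the replicate 1 libraries.

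**Figure D4:**
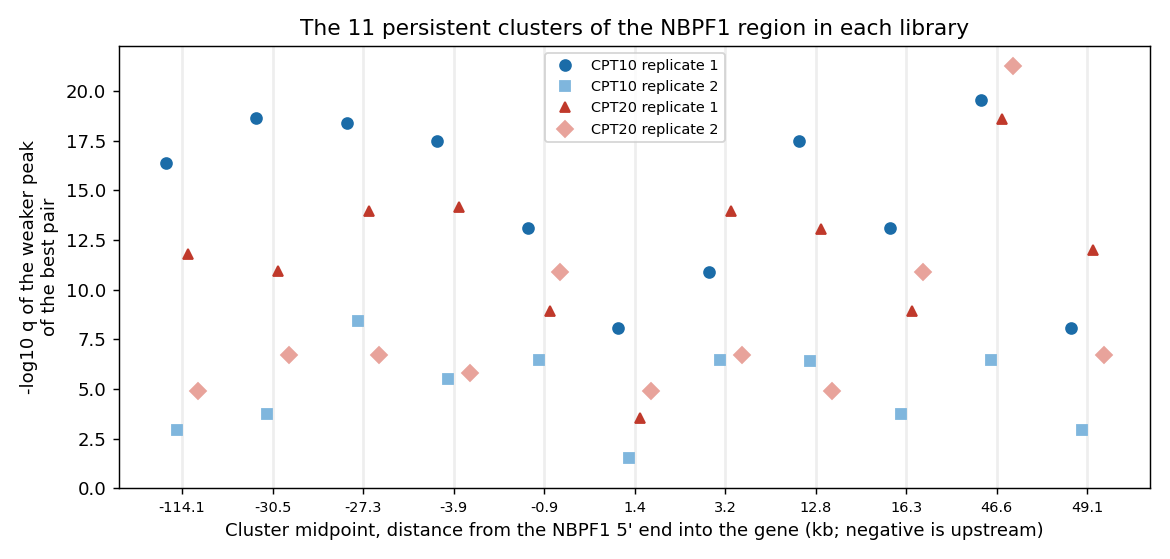
The −log10 q of the weaker peak of the best pair in each of the 11 persistent clusters, by library, with clusters ordered by the distance of their midpoint in kb from the NBPF1 5′ end (negative is upstream). CPT10 replicate 2 (square) lay at or below 8.43 in every cluster, and the cluster at 46.6 kb reached 18.6 or more in the other 3 libraries.

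The clusters of NBPF1 lay in sequence that has close but not identical copies. Unique 150-base words made up 92.4% to 100% of each of the 11 clusters. Aligned to the rest of chromosome 1, the 6 clusters with midpoints in NBPF1 had a best copy over their whole length at 94.2% to 97.6% identity. For 4 of these the copy lay at chr1:21766899-21791339, where NBPF3 is annotated, and for 2 beyond the centromere at chr1:144827524-144829116 and chr1:148010183-148011117. The cluster across the 5′ end had a full-length copy at 89.1% identity, and the intergenic one had a copy at 92.9% inside the region, at chr1:16871958-16872378. The cluster with its midpoint in ENSG00000271732 had a copy over 58.0% of its length at 89.9% identity, at chr1:145942002-145943850. The CROCCP2 clusters had a copy over 34.7% of the length at 79.98% identity in 1 case and none found in the other. GC content of the clusters was 38.1% to 58.7%, with a median of 43.3%.

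Transient clusters, replicated at 10 min and not overlapping a replicated site at 20 min, numbered 11 in the region of 2958 in the genome, with 2 in the flanks. Late clusters, replicated at 20 min only, numbered 4 of 1899, with 2 in the flanks. With every list limited to the length of the smallest, the region held 8 transient and 7 late clusters, with no genome count at that setting. The best-ranked transient cluster, at chr1:17052312-17053556, had 14.2 and 8.43 at 10 min. It also had a pair at 8.76 in CPT20 replicate 1 and none in CPT20 replicate 2. The best-ranked late cluster, at chr1:16892021-16892841 in NBPF1, had 26.5 and 8.69 at 20 min and pairs at 7.17 and 4.57 in the 10 min libraries as well, which did not overlap each other. Of the 11 transient clusters, 9 had a pair in CPT20 replicate 1 and 0 in CPT20 replicate 2. Of the 4 late clusters, 2 had a pair in each of the 4 libraries. CPT20 replicate 2 was also the library with the shortest lists, and its part in the split between classes was not tested.

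Peaks lay beside RNU1-1 and none lay near RNU1-3 or RNU1-4, the other 2 U1 genes of the region. RNU1-1 (chr1:16840617-16840780, minus strand), for which 80.5% of the words within 1 kb were unique, had 11, 7, 9 and 7 summits within 4 kb. The nearest reverse peak on its left ended 233, 228, 336 and 248 bp from the gene, with heights of 40, 12, 15 and 15 fragments and −log10 q of 39.7, 8.48, 9.91 and 10.9. A forward peak on its right was present in 3 of 4 libraries, with heights of 17, 19 and 20 fragments, and absent within 1 kb in CPT10 replicate 2. This order, reverse on the left and forward on the right, is that of a break, yet the peaks lay too far apart to be paired by the 150 bp rule. In CPT10 replicate 1 the reverse peak also overlapped a forward peak of 26 fragments whose summit lay to its left. The rule paired it with that peak. Since the gene is on the minus strand, the reverse peak lay beyond its 3′ end and the forward peak at its 5′ end. RNU1-3 and RNU1-4 had 0 summits within 4 kb in all 4 libraries, and 0% of the words within 1 kb of either were unique. No statement on breaks at these genes can be made from the lists. RNU1-2, which lies in the right flank with 92.8% unique words within 1 kb, had 5, 6, 5 and 5 summits within 4 kb. These counts join both strands, and the flanks held 3.21, 1.83, 3.36 and 1.13 summits per list per 10 kb in the same libraries. The 10 kb bin that holds RNU1-1 had 21 summits over the 8 lists and the bin to its left 36. The median flank bin had 18 (3 to 38). Whether either gene was richer in peaks than its surroundings was not tested.

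**Figure D5:**
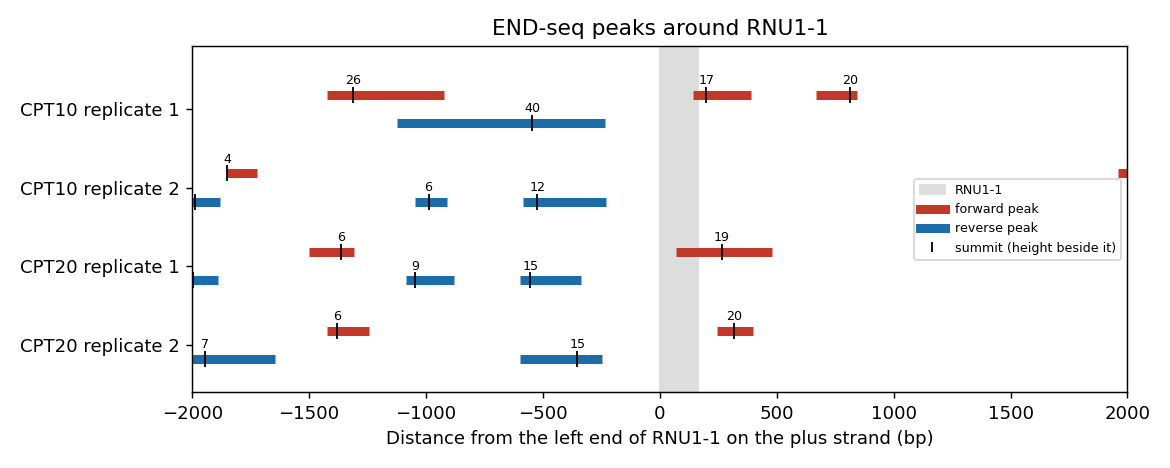
Peaks around RNU1-1 (grey band) in each library, forward in red and reverse in blue, with black ticks and numbers for the summits and their heights in fragments; the axis is the distance in bp from the left end of the gene. In all 4 libraries a reverse peak ended 228 to 336 bp to the left of the gene, and in 3 a forward peak lay at its right end.

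The times were compared by a two-sided exact permutation test, whose smallest possible p with 2 samples per group is 0.333, so no difference could pass a threshold of 0.05. Per 100000 peaks of the library, the region held 19.5 and 18.7 at 10 min and 24.4 and 27.3 at 20 min. The means were 19.1 ± 0.6 and 25.8 ± 2.1 (SD, n = 2 each), a log2 ratio of 0.43 (exact permutation p = 0.333), and the groups did not overlap. Per 1000 sites, the region held 0.642 and 0.730 at 10 min and 0.851 and 1.38 at 20 min, a log2 ratio of 0.70 (exact permutation p = 0.333), again with no overlap. Not scaled to the lists, the counts gave log2 ratios of -0.059 for peaks and -0.099 for sites, so the direction turned with the scaling. The tallest summit per unit of expected height, taken in the forward and in the reverse list and averaged over both, was 31.5 and 34.9 at 10 min and 36.2 and 32.5 at 20 min, a log2 ratio of 0.05 (exact permutation p = 0.667), and these groups overlapped.

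Within its family NBPF1 stood at the upper end. Of 14 NBPF genes on chromosome 1, 2 had a persistent cluster within 1 kb, NBPF1 with 7 and NBPF10 with 1. Any such cluster was found for 1.62% of all 63827 annotated genes and 3.2% of the 20098 protein-coding genes. The region of NBPF1 was chosen for its clusters, so its count is no test. The other 13 NBPF genes held 0 to 1.81 summits per list per 10 kb with a median of 0.17, against 5.90 in NBPF1. Their unique 150-base words ranged from 3.89% to 94.8% with a median of 24.0%. NBPF3, at 94.8% unique, held 1.81 summits per list per 10 kb, and NBPF10, at 53.2% unique, held 1.53. Of 25 annotated U1 genes none had a persistent cluster within 1 kb, and of 19 other small RNA genes (other spliceosomal, 7SK, 7SL, RMRP and RPPH1) 1 had. Both groups are too small to be set apart from the 1.62% of all annotated genes. Unique words made up 0% of RNU1-3 and RNU1-4, and their share was not determined for U1 genes other than RNU1-1 to RNU1-4. The copy number of the region in HCT116 cells was not measured here, and its part in the peak density was not tested.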

How the data were processed

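The members, gene lists and settings were chosen with earlier results of these data known. Per the study's methods, the authors trimmed reads (Trim Galore 0.6.5), aligned them to hg19 (Bowtie2 2.5.0; mm10 for the spike-in), kept proper pairs at a mapping quality of at least 30 (SAMtools 1.16.1), kept duplicates, split pairs by strand and called peaks per library and strand with MACS2 2.2.7.1 at q 0.05, with a constant background. The deposited values are, per peak, a score, a fold (ratio) of the summit over the expected height, and a −log10 p and −log10 q. The fold was turned back into summit heights, and a Poisson tail of these gave the deposited −log10 p within 5.6e-05 (heights up to 50). Heights count fragments without molecular identifiers, so intervals cover counting error only.

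Peaks were placed by summit, and sites, replicated sites and clusters by midpoint, with overlaps of at least 1 bp (bedtools 2.31.1). Words were matched exactly on both strands of GRCh37, and cluster copies by blastn 2.17.0 on chromosome 1. Genes came from GENCODE 44 lifted to GRCh37. Group means were compared by a two-sided exact permutation test (SciPy 1.17.1). The scripts were tested on simulated data. Named were NBPF1, the protein-coding and small nuclear RNA genes of the region, other genes with a persistent midpoint, all persistent clusters and the best-ranked cluster of each other class. ESPNP, CROCCP3, CROCCP4, MST1L, MST1P2, ENSG00000280114, ENSG00000283773, EIF1AXP1, PDE4DIPP8, NBPF3 and RNU1-2 were named after their values were seen. Alternatives covered peak thresholds, list length, flank width, pairing distance, overlap, scaling, omitted libraries and the replicate block. The sequence of the CROCCP2 clusters is not reported here.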

Additional observations from a re-analysis of the deposited data

How the results depend on the processing

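Of 76 alternative values, 51 were counted as unchanged. For the log2 ratios of 20 over 10 min this was judged by direction alone, whatever the size. With peaks whose −log10 q reached 3, the mean peak density ratio was 2.27 (1.75 with all peaks), the site density ratio 14.5 (5.37), the forward share 49.7% (47.9%) and the persistent clusters 7 (11). At 10 the peak ratio was 7.0, the forward share 46.4%, the replicated share 10.1% (50.4%) and the persistent clusters 0, with 0 transient and 1 late, and no site ratio could be formed because CPT10 replicate 2 had no flank site. With lists limited to the length of the smallest, the ratios were 2.24 and 13.5, the forward share 49.2%, the persistent clusters 7, the transient 8 and the late 7 (11 and 4), and the log2 ratio of sites at 20 over 10 min turned to -0.049. With a reciprocal overlap of at least 50%, the replicated share was 18.2% and the persistent clusters 4. Counts not scaled gave log2 ratios of -0.059 for peaks and -0.099 for sites. Unique words in the region were 53.2% for 50-mers and 71.4% for 100-mers. Other flank widths and pairing distances kept the densities and shares within the spread between libraries and the cluster counts within 1.5 times. Other pairing distances also kept the direction of the log2 ratio of sites. Leaving out each library in turn gave peak ratios of 1.57 to 1.86 and site ratios of 4.20 to 6.19. For 20 over 10 min it gave log2 ratios of 0.35 to 0.51 for peaks, 0.31 to 1.01 for sites and -0.030 to 0.12 for the tallest summit (mean of the strands), which turned negative without CPT10 replicate 1 (-0.023) or CPT20 replicate 1 (-0.030). The sites ratio rose from 0.70 to 1.01 without CPT20 replicate 1 and fell to 0.31 without CPT20 replicate 2. The replicate block, which pairs same-numbered libraries, gave log2 ratios of 0.43, 0.66 and 0.05, and changed no direction. The causes were not tested. The stricter thresholds and shorter lists left fewer and stronger peaks, so number and strength changed together.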
